A study of Mus musculus with 4 samples.

Results

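The CXC chemokines described here are 9 genes of the 32285 in the count matrices, *Cxcl1*, *Cxcl2*, *Cxcl3*, *Cxcl5*, *Cxcl9*, *Cxcl10*, *Cxcl12*, *Cxcl14* and *Cxcl16*. They were taken by symbol, and they were selected on measured values of these same libraries, namely their levels, the share of cells in which they were detected and the share of their transcripts held by the 10% of cells with most of them. Those 3 quantities are therefore given as a description, without a test. The data were 4 single-cell RNA libraries (10x Genomics 3′ chemistry) of primary mouse cells in culture, 1 library per condition, with no genetic modification or drug named for any of them. iWAT_DFAT and eWAT_DFAT were cells that had grown out of floating adipocytes in ceiling culture (de-differentiated fat, DFAT, cells) from inguinal (iWAT) or epididymal (eWAT) white adipose tissue. iWAT_ASPC and eWAT_ASPC were the plated stromal vascular fraction (SVF) of the same depots, labelled as cultured SVF cells and called adipose stem and progenitor cells (ASPCs) in the study. The methods describe chow-fed male C57BL/6J mice, flasks filled with medium and inverted so that floating adipocytes attached to the upper wall, and a sort of trypsinised cells after staining with 7-AAD, a dye of dead cells. No adipocyte lineage label was carried by these cells, so the origin of a single cell is not marked, and the number of animals behind each library is not given in the sources used here.

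Chemokines are small secreted proteins that bind G-protein-coupled receptors and steer leukocytes, and in adipose tissue stromal cells are among their sources. The members with an ELR motif before the first cysteines, among them *Cxcl1*, *Cxcl2*, *Cxcl3* and *Cxcl5*, act on CXCR2 and draw neutrophils, and their transcription is a textbook output of NF-κB. *Cxcl9* and *Cxcl10* are induced by interferons and draw T cells through CXCR3. *Cxcl12* holds haematopoietic and immune cells through CXCR4, *Cxcl14* is a constitutive epithelial and stromal chemokine, and *Cxcl16* is made as a membrane-anchored protein that is the ligand of CXCR6 and can be shed by ADAM10 and ADAM17.

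In the GENCODE M21 annotation of GRCm38 (mm10, the build of the count files), *Cxcl5* (chromosome 5, 90759360 to 90761624), *Cxcl3* (90786103 to 90789600), *Cxcl1* (90891241 to 90893115) and *Cxcl2* (90903871 to 90905938) lie on the plus strand within 147 kb. *Cxcl9* (92321347 to 92328079) and *Cxcl10* (92346638 to 92348889) lie on the minus strand of the same chromosome, and *Cxcl10* overlaps *Art3* on the other strand. *Cxcl12* (chromosome 6, 117168535 to 117181367), *Cxcl14* (chromosome 13, 56288643 to 56296551) and *Cxcl16* (chromosome 11, 70453983 to 70459984) lie on other chromosomes, the first on the plus strand and the others on the minus strand, and *Cxcl16* overlaps *Zmynd15* on the other strand.

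Promoter windows of 300 bases (250 before to 50 after the start, RefSeq, GRCm38.p6) were at hand for 7 of the 9 members, all but *Cxcl5* and *Cxcl16*, and were searched on both strands for the κB consensus, for TATAAA, for TGANTCA (the AP-1 site) and for GAAANNGAAA (the core of the interferon-stimulated response element, ISRE). The windows of *Cxcl1*, *Cxcl2* and *Cxcl3* held κB matches. Their stretches from 100 to 31 bases before the start are shown, with bases that match the κB consensus on either strand in capitals.

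Cxcl1, plus strand, chr5:90891145-90891214: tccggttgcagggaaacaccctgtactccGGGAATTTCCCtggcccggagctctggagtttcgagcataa
Cxcl2, plus strand, chr5:90903799-90903868: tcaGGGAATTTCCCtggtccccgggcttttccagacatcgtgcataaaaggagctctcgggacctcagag
Cxcl3, plus strand, chr5:90786001-90786070: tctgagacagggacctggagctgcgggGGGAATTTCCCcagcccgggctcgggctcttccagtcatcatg

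All 3 held the same 11-base block, a pair of overlapping κB matches on opposite strands. Of 32851 mouse promoter windows, 12 (0.0365%) held that block, while 4.51% held a κB match of any kind. The block was read from these 3 windows, which are among the 12, so its share is a description and not a test. The window of *Cxcl10* had κB matches, an ISRE core and an AP-1 site, all in capitals in the stretch from 220 to 61 bases before its start.

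Cxcl10, minus strand, chr5:92348950-92349109: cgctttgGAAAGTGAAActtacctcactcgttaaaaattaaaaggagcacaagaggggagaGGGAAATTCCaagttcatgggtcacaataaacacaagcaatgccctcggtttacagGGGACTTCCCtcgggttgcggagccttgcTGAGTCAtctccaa

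The ISRE core occurred in 3.44% of all windows and TGANTCA in 7.81%. Windows of *Cxcl9*, *Cxcl12* and *Cxcl14* had no κB match, the window of *Cxcl14* held an ISRE core and that of *Cxcl9* held TGANTCA. The sequence TATAAA, which occurred in 13.6% of windows, was found 30 to 25 bases before the start of *Cxcl3*, just past the stretch printed, and 195 to 190 bases before that of *Cxcl9*, and not in the other 5 windows. These matches are letters in a reference sequence and binding was not measured.

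Kept cells, the barcodes with 5000 to 75000 unique molecular identifiers (UMIs), 200 to 7500 genes and under 10% mitochondrial UMIs, numbered 6464 to 7629 per library (28262 in all) with medians of 22111 to 27617 UMIs. UMIs of 3 or more of 6 ASPC markers such as *Pdgfra* and *Col1a1* were present in 91.2 to 98.5% of the cells. The adipocyte hormone gene *Lep* was at 0 UMIs in all 4 libraries, but other adipocyte markers were not. The 6 adipocyte markers summed to 23.1 UMIs per 1000000 in iWAT_DFAT, 96.2 in eWAT_DFAT, 0.446 in iWAT_ASPC and 1.23 in eWAT_ASPC. Between 43 and 52 barcodes per library (0.58 to 0.76% of its cells) were also kept in another library, and leaving them out moved no member across a 2-fold difference. Levels are UMIs of a gene per 1000000 UMIs of the kept cells (CPM) with exact Poisson 95% intervals, and ratios are log2 ratios of CPM with exact conditional binomial 95% intervals. Both cover counting error with each UMI taken as independent, and not the spread between cells or between cultures. They are therefore too narrow where few cells hold most UMIs of a gene. The spread between cultures cannot be shown by 1 library per condition, so no p-value is given.

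**Figure D1:**
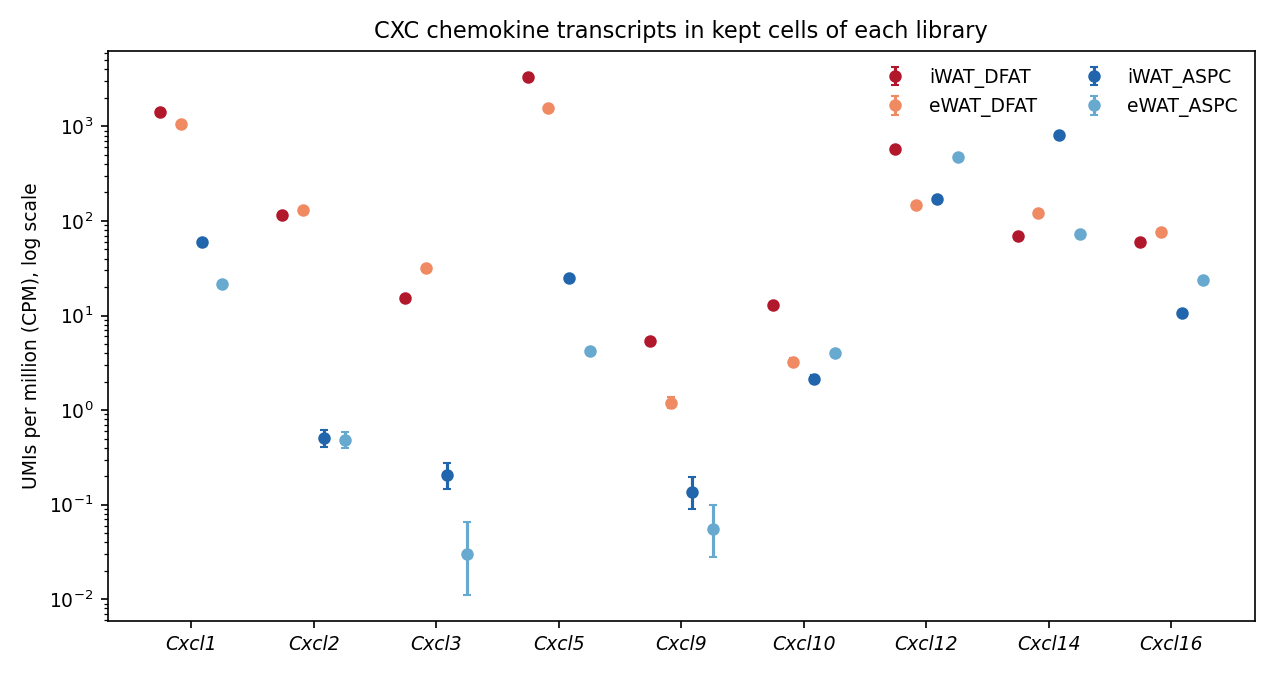
Level of each CXC chemokine in the kept cells of the 4 libraries, in CPM on a log axis, with exact Poisson 95% intervals as bars that cover counting error. *Cxcl1*, *Cxcl2*, *Cxcl3*, *Cxcl5*, *Cxcl9* and *Cxcl16* sit higher in both DFAT libraries than in both ASPC libraries, while *Cxcl10*, *Cxcl12* and *Cxcl14* do not separate the libraries in this way.

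DFAT libraries carried more of most members than ASPC libraries, and the neutrophil-attracting members made up most of the transcripts of the family there. Of the 9 members, 8 were at least 2-fold higher in iWAT_DFAT than in iWAT_ASPC, where 10.5% of the 12972 genes tested (mean of 1 CPM or more over the libraries) passed the same limit, and 1 member, *Cxcl14*, was at least 2-fold higher in iWAT_ASPC (6.75% of genes). In eWAT, 6 members were at least 2-fold higher in DFAT than in ASPC (8.1% of genes) and *Cxcl12* was at least 2-fold higher in ASPC (7.47% of genes). Between the DFAT libraries, 4 members were at least 2-fold higher in iWAT (*Cxcl5*, *Cxcl9*, *Cxcl10* and *Cxcl12*, 8.74% of genes) and *Cxcl3* was at least 2-fold higher in eWAT (5.56% of genes). Between the ASPC libraries, 5 members were at least 2-fold higher in iWAT (*Cxcl1*, *Cxcl3*, *Cxcl5*, *Cxcl9* and *Cxcl14*, 4.56% of genes) and 2 were in eWAT (*Cxcl12* and *Cxcl16*, 4.86% of genes). Of these, *Cxcl3* (41 against 6 UMIs) and *Cxcl9* (27 against 11 UMIs) passed the limit on the mean only through the DFAT libraries. The interval of the *Cxcl9* log2 ratio was 0.22 to 2.44, which reaches below 2-fold. At a limit of 4-fold, 7 members were higher in iWAT_DFAT than in iWAT_ASPC (3.99% of genes) and 1 was lower (2.81%), and 5 were higher in eWAT_DFAT than in eWAT_ASPC (2.74%) and 0 lower (2.3%). At that limit 1 was higher in iWAT_DFAT than in eWAT_DFAT (2.37%) and 0 the reverse (1.94%), and 3 were higher in iWAT_ASPC than in eWAT_ASPC (1.42%) and 0 the reverse (1.56%). The members were chosen on these levels, so nothing is read from these counts beyond the values themselves, and each library enters 2 of the 4 ratios.

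The median log2 ratio over the 9 members was 4.57 for iWAT_DFAT over iWAT_ASPC and 4.43 for eWAT_DFAT over eWAT_ASPC, beside medians of 0.079 and 0.075 over all genes tested. For iWAT over eWAT the members' median was 0.41 in DFAT and 1.28 in ASPC, beside 0.076 and 0.062. All 9 members passed the limit on the mean, and *Cxcl2*, *Cxcl3* and *Cxcl9* passed it through the DFAT libraries, since their ASPC levels were under 1 CPM.

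**Figure D2:**
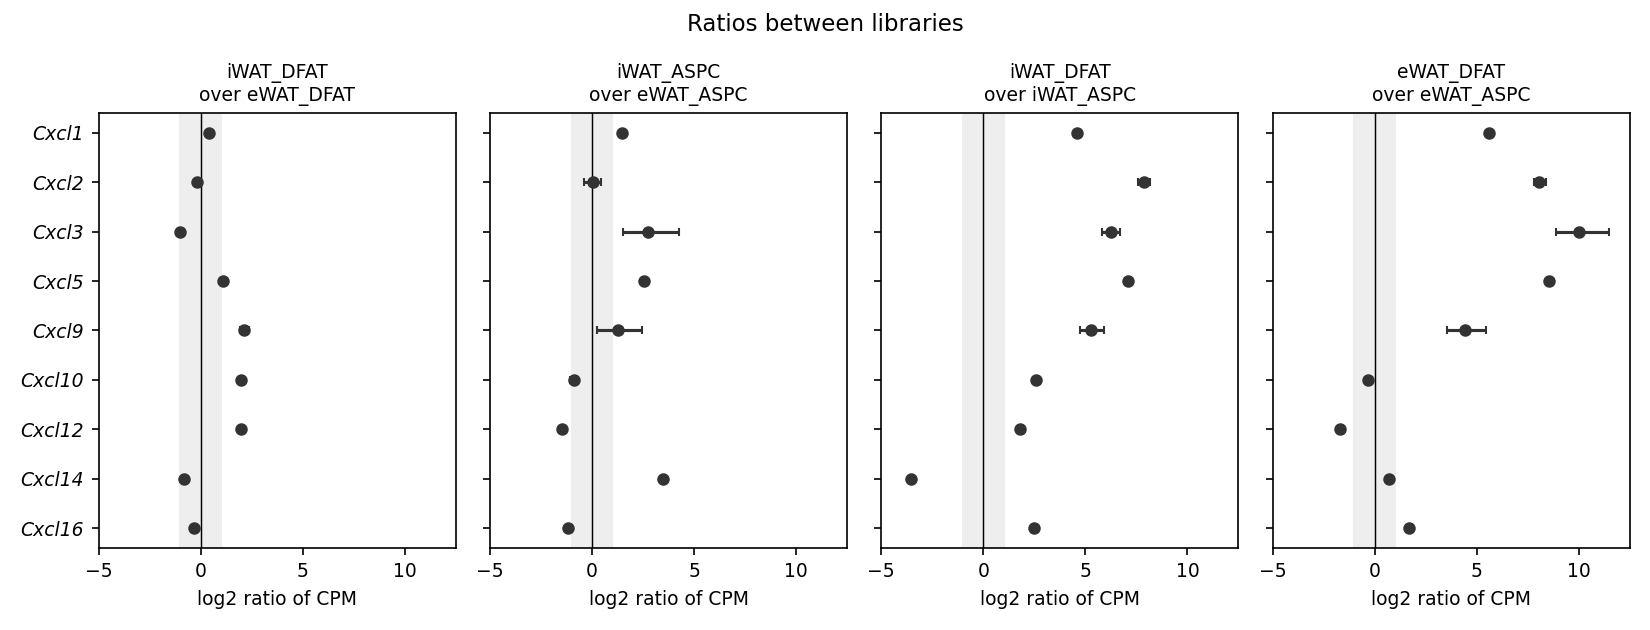
Log2 ratios of CPM between libraries for the 9 members, 1 panel per pair, with exact 95% counting intervals as bars and the range within 2-fold shaded grey. The DFAT over ASPC ratios reach 10.02 for *Cxcl3* in eWAT, and *Cxcl12*, *Cxcl14* and *Cxcl10* change side between the iWAT and the eWAT panel.

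*Cxcl5*, an ELR chemokine and the most abundant member in both DFAT libraries, measured 3347 CPM in iWAT_DFAT, 1569 in eWAT_DFAT, 24.7 in iWAT_ASPC and 4.22 in eWAT_ASPC. Both DFAT libraries were far above both ASPC libraries, by 136-fold in iWAT (log2 7.08, interval 7.04 to 7.13) and by 372-fold in eWAT (log2 8.54, interval 8.44 to 8.64), and iWAT was above eWAT in both kinds of culture. The eWAT log2 ratio was 9.83 among cells with ASPC markers alone and 10.15 without the 1% of cells with most *Cxcl5*. Here and below, cells with ASPC markers alone had 3 or more of these and under 3 markers of each other type. Cells with fewer markers of another type therefore remained. It was detected in 98.8 and 87.7% of the cells of iWAT_DFAT and eWAT_DFAT, and in 19.5 and 3.97% of those of iWAT_ASPC and eWAT_ASPC. The 154 eWAT_ASPC cells with UMIs of 3 or more of 6 endothelial markers, which are part of that library, had a share of 3.90% at a median depth of 16217 UMIs, beside 27617 over all its cells. The transcripts that were there sat in a small set of cells, since the 547 cells with 3 or more of 6 mesothelial markers held 62.0% of them, at 35.9 CPM against 1.77 CPM in the 5300 cells with under 2 markers of each other type. All 10 cells with most *Cxcl5* UMIs in eWAT_ASPC carried 3 or more mesothelial markers.

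*Cxcl1*, a second ELR chemokine and the usual mouse counterpart of human GRO-alpha, measured 1408, 1059, 59.2 and 21.5 CPM in iWAT_DFAT, eWAT_DFAT, iWAT_ASPC and eWAT_ASPC. The order was that of *Cxcl5*, with smaller steps, namely 23.8-fold from iWAT_ASPC to iWAT_DFAT (log2 4.57) and 49.2-fold from eWAT_ASPC to eWAT_DFAT (log2 5.62, interval 5.58 to 5.66). Nearly every DFAT cell had a UMI of it, 98.7% in iWAT and 92.2% in eWAT, against 47.6 and 24.0% in the ASPC libraries. With every cell thinned to 5000 UMIs these shares were 96.0, 78.1, 19.3 and 7.96%. In cells with endothelial markers the full-depth share was 66.2% in eWAT_DFAT, 26.3% in iWAT_ASPC and 18.2% in eWAT_ASPC, at median depths of 11794, 15919 and 16217 UMIs.

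*Cxcl2*, the ELR chemokine once named MIP-2, measured 117, 131, 0.502 and 0.486 CPM in the same order. Both DFAT levels were close to each other, and both ASPC levels rested on about 100 UMIs each (100 in iWAT_ASPC and 96 in eWAT_ASPC). The DFAT over ASPC ratio was 233-fold in iWAT (log2 7.86, interval 7.58 to 8.16) and 269-fold in eWAT (log2 8.07, interval 7.79 to 8.38). Although abundant on average, *Cxcl2* was detected in 36.4% of iWAT_DFAT and 33.7% of eWAT_DFAT cells, and in 0.741 and 0.430% of the cells of iWAT_ASPC and eWAT_ASPC. In the 148 eWAT_DFAT cells with endothelial markers the share was 30.4%, at 88.3 CPM and at less than the depth of the library. In the endothelial-marker cells of the ASPC libraries it was 3.51% of 57 cells and 3.90% of 154 cells, from 2 and 10 UMIs. In eWAT_ASPC, 25 cells with 3 or more of 6 immune markers held 66.7% of the *Cxcl2* UMIs, at 126 CPM (interval 97.2 to 161), against 0.0979 CPM in cells with under 2 markers of each other type. Among cells with ASPC markers alone the eWAT DFAT over ASPC log2 ratio was 10.50.

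*Cxcl3*, the last ELR member, measured 15.5, 31.5, 0.206 and 0.0304 CPM. The eWAT_ASPC value came from 6 UMIs in the whole library and the iWAT_ASPC value from 41. Its DFAT over ASPC ratio was 75.3-fold in iWAT (log2 6.24, interval 5.79 to 6.72) and had a wide interval in eWAT (log2 10.02, interval 8.90 to 11.47, and 12.33 among cells with ASPC markers alone). It was the member at least 2-fold higher in eWAT_DFAT than in iWAT_DFAT, at 2.03-fold (log2 -1.02, interval -1.09 to -0.96 for iWAT over eWAT), close to the limit. This ratio fell within 2-fold among cells with ASPC markers alone (-0.91) and without the highest doublet (Scrublet) scores (-0.995). *Cxcl3* was found in 8.78% of iWAT_DFAT and 14.7% of eWAT_DFAT cells, and in 6.76% of the endothelial-marker cells of eWAT_DFAT. In the 66 eWAT_DFAT cells with 3 or more of 6 pericyte markers it measured 209 CPM (interval 187 to 233), against 27.2 CPM in cells with under 2 markers of each other type, and *Cxcl1* measured 1916 against 1023 CPM in the same classes.

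The ELR members differed in how evenly cells shared them. In iWAT_DFAT the 10% of cells with most UMIs held 23.0% of *Cxcl1* and 26.4% of *Cxcl5*, beside 19.1 and 18.7% computed for Poisson counts at 1 common level per UMI. In eWAT_DFAT the same share was 40.4% for *Cxcl1* and 44.3% for *Cxcl5*, beside 19.2 and 18.9%. *Cxcl2* was far more uneven, with 68.8% in iWAT_DFAT and 82.7% in eWAT_DFAT, beside 25.0 and 23.6%. After thinning, the variance over the mean (Fano factor) in eWAT_DFAT was 15.9 for *Cxcl5*, 12.6 for *Cxcl2* and 10.0 for *Cxcl1*, which ranked 13, 22 and 24 among 5660 genes found in at least 10% of cells, where the median gene had 1.07. This factor depends on the level of a gene as well as on its unevenness. *Cxcl5* in iWAT_DFAT ranked 25 of 5978 genes with its top share of 26.4%, so the ranks are not read as unevenness alone. The single highest cell of eWAT_DFAT held 925 UMIs of *Cxcl5*, and the highest of iWAT_DFAT held 419. Shares of 100% for genes found in under 10% of cells are fixed by construction and are not given.

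**Figure D3:**
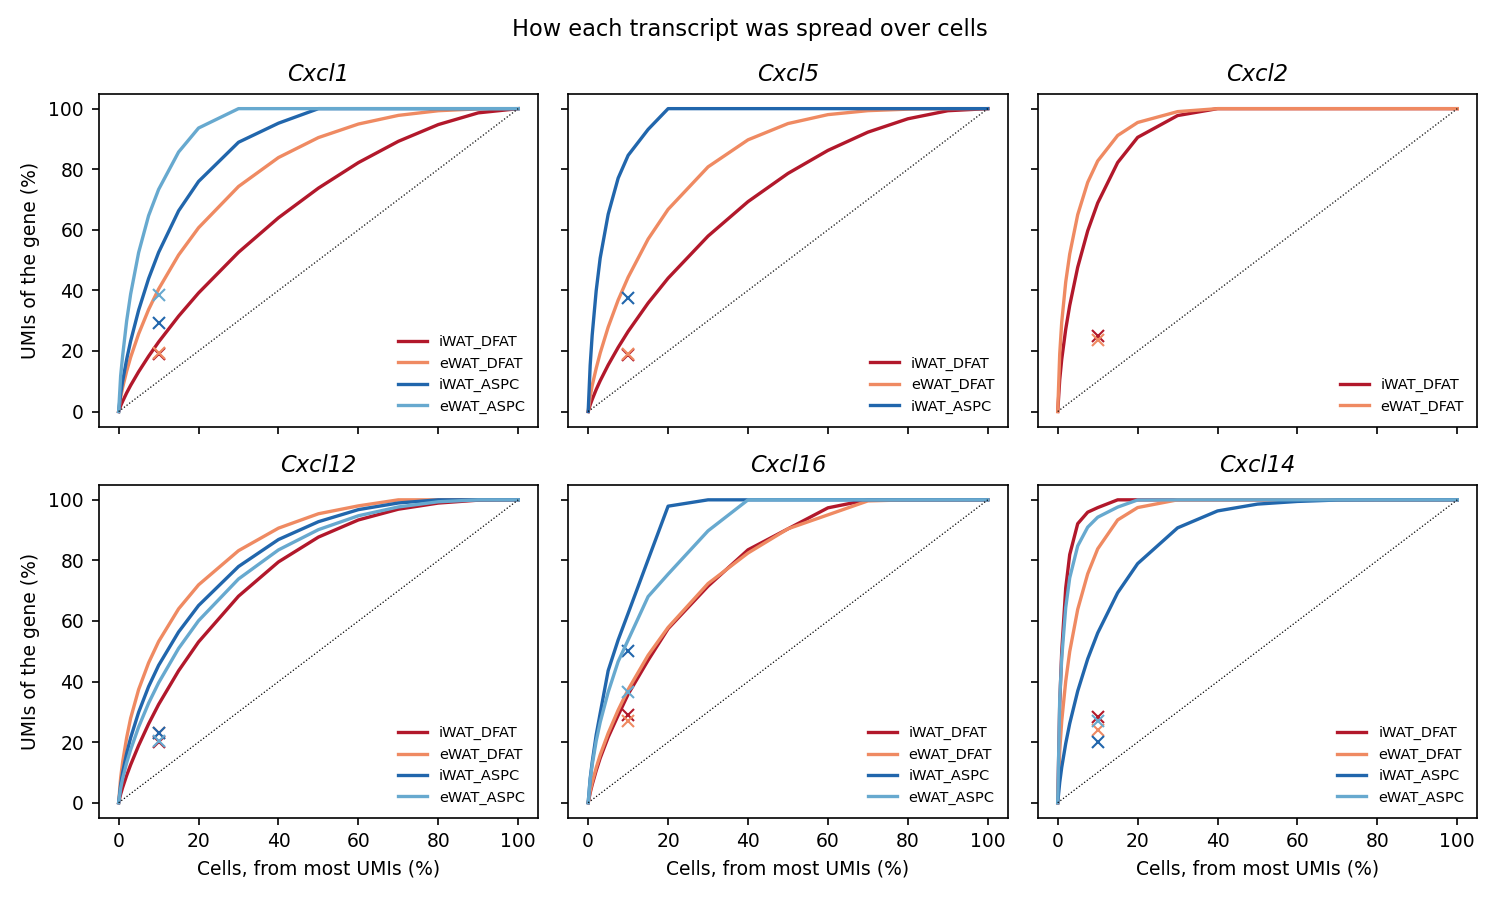
Cumulative share of the UMIs of 6 members (vertical axis, %) against cells ranked from most UMIs of that gene (horizontal axis, %), 1 line per library, with crosses for the share that Poisson counts would give to the top 10% of cells and a dotted line for equal sharing. Lines for libraries in which fewer than 10% of cells had a UMI are left out, and the top 10% of iWAT_DFAT cells hold 68.8% of *Cxcl2* and 97.4% of *Cxcl14* but 23.0% of *Cxcl1* and 26.4% of *Cxcl5*.

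*Cxcl1* and *Cxcl5* were correlated across the cells of both DFAT libraries, and *Cxcl2* with both of them in eWAT_DFAT. Across the 6464 cells of eWAT_DFAT, thinned to 5000 UMIs, the Pearson correlation of log counts was 0.59 for *Cxcl1* with *Cxcl5*, 0.42 for *Cxcl1* with *Cxcl2* and 0.33 for *Cxcl2* with *Cxcl5*. In the 7629 cells of iWAT_DFAT the values were 0.41, 0.15 and 0.13, and those with *Cxcl2* are too low in sparse counts to be read. *Cxcl3* was sparser, and in eWAT_DFAT 14.1% of the cells with *Cxcl2* also had *Cxcl3* against 4.91% of the others. Cells of 1 library share its culture and free RNA, and these values describe that library.

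In the DFAT libraries the 3 genes closest to *Cxcl1* or *Cxcl5* were the other of this pair, *Ccl2*, and *Ptx3* (iWAT_DFAT) or *Ccl7* (eWAT_DFAT). In eWAT_DFAT the closest of 5659 genes to *Cxcl1* was *Ccl2*, the monocyte-attracting CC chemokine (0.60), followed by *Cxcl5* (0.59) and *Ccl7* (0.52), a second CC chemokine. In iWAT_DFAT the closest to *Cxcl5* was *Ptx3*, a secreted pattern-recognition protein (0.51), then *Ccl2* (0.45) and *Cxcl1* (0.41). In iWAT_ASPC the highest value for *Cxcl1* was 0.11 with *Ccl7*, too low in sparse counts to be read.

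**Figure D4:**
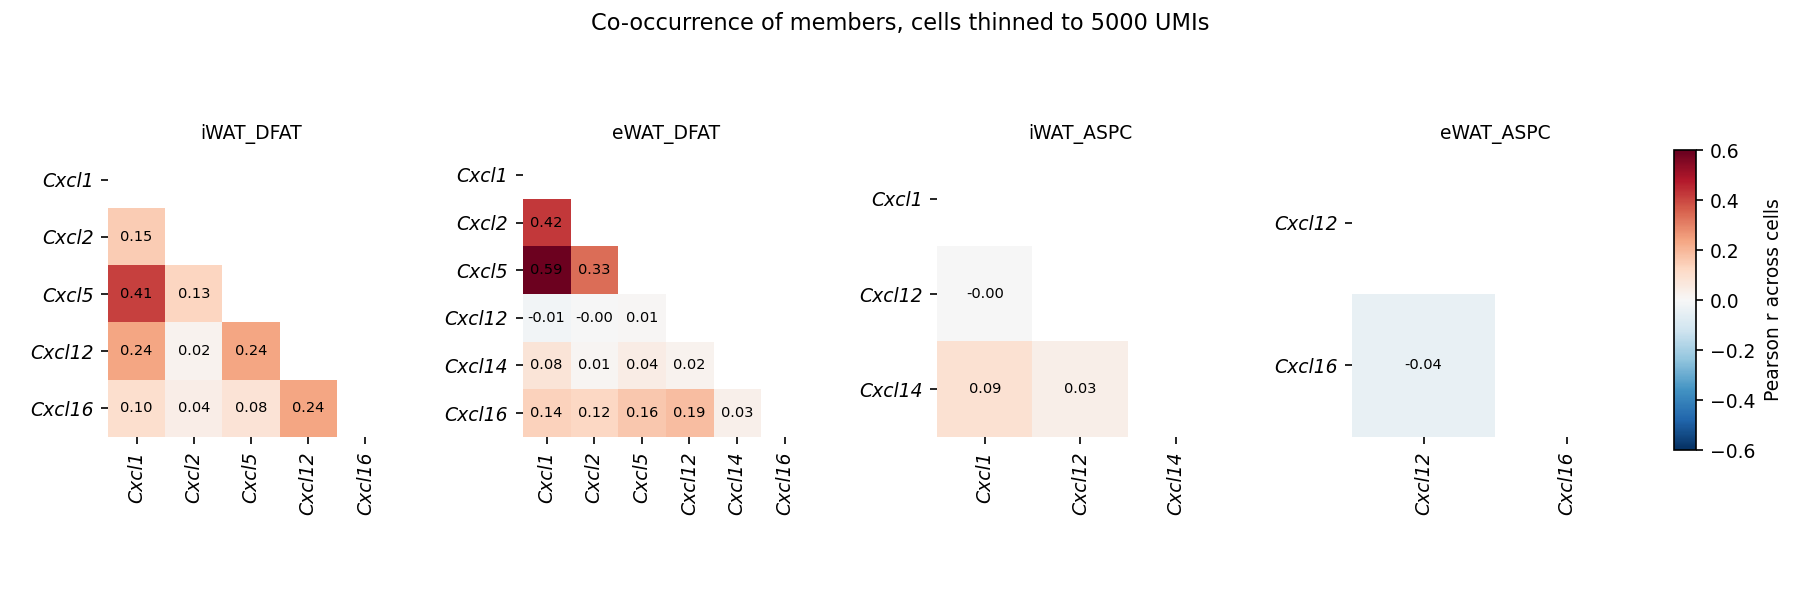
Pearson correlations across cells between members found in at least 10% of thinned cells, 1 panel per library, on log counts after thinning each cell to 5000 UMIs, with colour from blue (negative) to red (positive). The highest values are 0.59 and 0.41 for *Cxcl1* with *Cxcl5* in eWAT_DFAT and iWAT_DFAT and 0.42 for *Cxcl1* with *Cxcl2* in eWAT_DFAT, and the value for *Cxcl12* with *Cxcl16* is -0.04 in eWAT_ASPC.

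Most genes of an NF-κB list were also higher in DFAT than in ASPC libraries. The list was chosen with earlier results of these data known, so its counts are a description and not a test. Of 22 listed NF-κB subunits, inhibitors and targets, 19 were at least 2-fold higher in iWAT_DFAT than in iWAT_ASPC and 0 were lower, with a median log2 ratio of 2.22. In eWAT 13 were at least 2-fold higher in DFAT and 0 lower, with a median of 1.16. The largest iWAT differences were 40.3-fold for *Tnfaip3*, a feedback inhibitor of NF-κB (110 against 2.73 CPM), 17.5-fold for the cytokine *Lif*, 13.9-fold for *Il6*, while *Ccl2* measured 2817 against 257 CPM. The iWAT_DFAT over eWAT_DFAT comparison had 7 higher and 1 lower (8.74 and 5.56% of all genes tested), and iWAT_ASPC over eWAT_ASPC had 3 higher and 2 lower (4.56 and 4.86%). For DFAT over ASPC the shares of all genes were 10.5% higher and 6.75% lower in iWAT, and 8.1 and 7.47% in eWAT.

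Ranking cells by the summed UMIs of this list, which holds no CXC chemokine, separated ELR levels more in eWAT_DFAT than in iWAT_DFAT. The list itself was also separated more in eWAT_DFAT. Its mean per thinned cell was 78.5 UMIs in the top 10% against 14.8 in the lower 50%, beside 61.6 against 22.4 in iWAT_DFAT. The part of this spread in the ELR contrast was not tested. In the top 10% of eWAT_DFAT cells (646 cells) *Cxcl2* measured 636 CPM against 38.7 CPM in the lower 50% (3232 cells), *Cxcl1* 3167 against 451 and *Cxcl5* 4120 against 661. In iWAT_DFAT the same split gave 219 against 74.0 for *Cxcl2*, 2094 against 1175 for *Cxcl1* and 4806 against 2620 for *Cxcl5*. Members outside the ELR group differed in it too. In iWAT_DFAT *Cxcl10* (7.33-fold), *Cxcl9* (3.19-fold), *Cxcl12* (2.28-fold) and *Cxcl16* (2.21-fold) differed by more than *Cxcl1* (1.78-fold) and *Cxcl5* (1.83-fold). In eWAT_DFAT *Cxcl10* differed by 9.32-fold, *Cxcl9* by 6.54-fold (17 against 13 UMIs), *Cxcl16* by 2.78-fold and *Cxcl12* by 1.33-fold. *Ccl2*, *Ccl7* and *Csf1* held 69.1 to 83.5% of the UMIs of the list, so the cells were also ranked by the other 19 genes, a split added after the first values were seen. The means of these 19 genes were 13.7 against 2.43 UMIs in eWAT_DFAT and 22.3 against 6.20 in iWAT_DFAT. *Cxcl2* in eWAT_DFAT then measured 544 against 53.0 CPM, *Cxcl1* 2407 against 631 and *Cxcl5* 3412 against 940. *Cxcl12* in eWAT_DFAT measured 459 against 132 CPM by the 19 genes, a 3.47-fold difference, and *Cxcl16* 163 against 62.1 CPM (2.63-fold). In iWAT_DFAT the split by the 19 genes was smaller for *Cxcl1* (1894 against 1206 CPM) and *Cxcl5* (3719 against 2908) and larger for *Cxcl2* (245 against 74.7). *Cxcl3* there measured 17.0 against 14.7 CPM, a log2 ratio of 0.21 with an interval of -0.20 to 0.61, while in eWAT_DFAT it measured 96.6 against 17.1 CPM.

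*Cxcl10*, an interferon-induced CXCR3 ligand, measured 12.9, 3.25, 2.15 and 4.02 CPM in iWAT_DFAT, eWAT_DFAT, iWAT_ASPC and eWAT_ASPC. iWAT_DFAT was the highest, 6.01-fold above iWAT_ASPC (log2 2.59, interval 2.44 to 2.74) and 3.97-fold above eWAT_DFAT (log2 1.99, interval 1.86 to 2.12), while eWAT_DFAT lay slightly below eWAT_ASPC (log2 -0.31, interval -0.46 to -0.15). Few cells held most of these transcripts. A UMI of *Cxcl10* was found in 9.15, 3.06, 0.727 and 1.13% of cells, beside 2.70% of the endothelial-marker cells of eWAT_DFAT and 1.30% of those of eWAT_ASPC, and the highest cell held 173, 59, 178 and 194 UMIs. In iWAT_ASPC a single cell held 41.5% of all *Cxcl10* UMIs and 10 cells held 87.6%, and in eWAT_ASPC 10 cells held 78.9%. The eWAT ratio was above 0 with cells weighted equally (log2 0.15) and among cells with ASPC markers alone (0.40). The 1% of cells with most *Cxcl10* held 98.9% of its UMIs in eWAT_ASPC and 74.8% in eWAT_DFAT, so a ratio without them is set by the share of cells with a UMI and is not read.

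*Cxcl9*, the other CXCR3 ligand, was the scarcest member in iWAT_DFAT, with 5.32, 1.20, 0.135 and 0.0557 CPM from 977, 223, 27 and 11 UMIs. Both DFAT libraries were above their ASPC library, by 39.3-fold in iWAT (log2 5.30, interval 4.75 to 5.90) and 21.6-fold in eWAT (log2 4.43, interval 3.56 to 5.45). It was found in 5.02% of iWAT_DFAT and 2.07% of eWAT_DFAT cells (2.70% of the endothelial-marker cells of eWAT_DFAT, from 4 UMIs). In iWAT_DFAT, of the 133 thinned cells with *Cxcl9*, 21.8% also had *Cxcl10*, against 2.92% of the other cells. The Pearson correlation was 0.29, a low value in sparse counts that is not read.

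Cells with ASPC markers made up all 10 of the cells with most *Cxcl10* in iWAT_DFAT, iWAT_ASPC and eWAT_ASPC and 7 of 10 in eWAT_DFAT, and some of these cells also carried markers of another type. In eWAT_DFAT the 138 cells with 3 or more of 6 adipocyte markers held 17.5% of *Cxcl9* and 18.5% of *Cxcl10* UMIs, with *Cxcl10* at 34.8 CPM (interval 28.7 to 41.9) against 2.30 CPM in cells with under 2 markers of each other type. Of the 10 eWAT_DFAT cells with most *Cxcl10*, 5 carried 3 or more adipocyte markers, and 5 of 10 did so for *Cxcl9*. In eWAT_ASPC the 547 cells with mesothelial markers held 58.4% of *Cxcl10* UMIs, at 32.2 CPM against 2.09 CPM in cells with under 2 markers of each other type. Of these 10 *Cxcl10* cells 6 in eWAT_ASPC carried mesothelial markers, 1 in iWAT_ASPC carried Schwann cell markers, and 0 in iWAT_DFAT carried 3 markers of any other type, while 1 of the 10 cells with most *Cxcl9* in iWAT_DFAT carried adipocyte markers.

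Of 18 interferon-stimulated genes tested, 16 were at least 2-fold higher in iWAT_DFAT than in iWAT_ASPC (10.5% of all genes tested). In iWAT_DFAT over eWAT_DFAT 14 were higher (8.74% of genes), with 0 lower in either comparison (6.75 and 5.56% of genes). In the ASPC libraries the depots stood the other way, with 12 of 18 at least 2-fold higher in eWAT_ASPC and 0 in iWAT_ASPC (4.86 and 4.56% of genes). In eWAT 8 were at least 2-fold lower in DFAT than in ASPC (7.47% of genes). *Isg15*, a ubiquitin-like antiviral protein gene, measured 35.7, 17.0, 1.88 and 67.2 CPM in the order above. *Iigp1*, an interferon-induced GTPase gene, differed by 20.1-fold between iWAT_DFAT and iWAT_ASPC, and *Ifi44* by 15.6-fold. *Cxcl10* shared this order of libraries except that eWAT_ASPC did not pass iWAT_DFAT.

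*Cxcl9* and *Cxcl10* were higher in cells with high sums of the interferon genes. In the top 10% of cells by this list *Cxcl10* measured 79.4 CPM in iWAT_DFAT against 3.67 CPM in the lower 50%, 24.8 against 1.92 in eWAT_DFAT and 27.6 against 1.30 in eWAT_ASPC. In iWAT_ASPC the count was 82 UMIs in the top 742 cells and 1 UMI in the lower 3712. That contrast rests on few cells, since 21 of 7424 thinned iWAT_ASPC cells had *Cxcl10*. At full depth 10 cells held 87.6% of its UMIs there. In eWAT_ASPC 35 of 6745 thinned cells had it. *Cxcl9* measured 34.1 against 1.63 CPM in iWAT_DFAT and 8.05 against 0.433 CPM in eWAT_DFAT. Other members differed in the same split as well, by 2.73-fold for *Cxcl12* and 2.48-fold for *Cxcl16* in iWAT_DFAT, and by 3.08-fold for *Cxcl12*, 3.05-fold for *Cxcl3*, 2.70-fold for *Cxcl16* and 2.20-fold for *Cxcl2* in eWAT_DFAT. *Cxcl1* differed by 1.19-fold in iWAT_DFAT and 1.44-fold in eWAT_DFAT. *Cxcl14* was lower in the top cells of iWAT_DFAT (25.2 against 74.3 CPM) and measured 99.7 against 115 CPM in eWAT_DFAT. Ranked by *Saa3*, *Cxcl9* differed by 13.7-fold in iWAT_DFAT and 35.0-fold in eWAT_DFAT (35 against 5 UMIs), and *Cxcl10* by 6.24-fold and 13.3-fold. In eWAT_DFAT *Cxcl10* also differed by the 19-gene NF-κB list, at 25.4 against 1.11 CPM, a ratio of 22.8 beside 12.9 by the interferon list, and in iWAT_DFAT at 23.6 against 9.18 CPM.

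**Figure D5:**
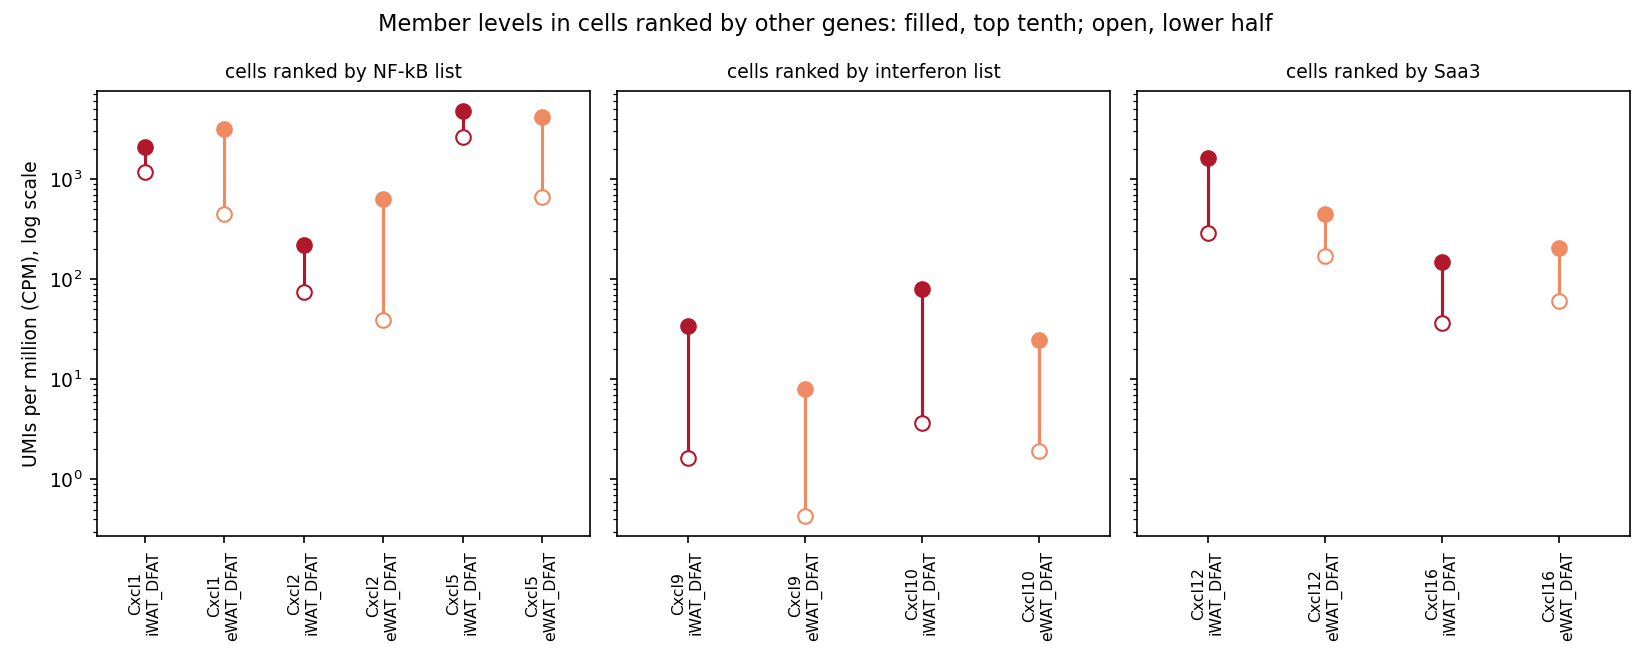
Levels of members (CPM, log axis) in the DFAT libraries for the top 10% of cells (filled circles) and the lower 50% of cells (open circles) ranked by the summed thinned UMIs of the NF-κB list, the interferon list or *Saa3*, none of which contains a CXC chemokine. By the interferon list *Cxcl10* in iWAT_DFAT stands at 79.4 against 3.67 CPM, and by the NF-κB list *Cxcl2* in eWAT_DFAT stands at 636 against 38.7 CPM.

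*Cxcl12*, the ligand of CXCR4 and a standard product of stromal cells, was not higher in both DFAT libraries than in both ASPC libraries, unlike the ELR members. It measured 583, 147, 169 and 477 CPM in iWAT_DFAT, eWAT_DFAT, iWAT_ASPC and eWAT_ASPC, so that the highest levels were in iWAT_DFAT and eWAT_ASPC. It was 3.44-fold higher in DFAT than in ASPC in iWAT (log2 1.78, interval 1.77 to 1.80) and 3.25-fold lower in eWAT (log2 -1.70, interval -1.72 to -1.68). Detection followed, at 91.5, 68.4, 74.7 and 88.9% of cells, and at 71.7, 35.3, 42.7 and 66.2% after thinning. In the 142 iWAT_ASPC cells with 3 or more of 6 Schwann cell markers the share was 18.3% at a median depth of 11514 UMIs.

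In eWAT_DFAT *Cxcl12* was highest in a small class of cells. The 148 cells with endothelial markers measured 1882 CPM (interval 1827 to 1937) against 127 CPM in cells with under 2 markers of each other type, and they held 16.5% of all *Cxcl12* UMIs of that library. All 10 of its highest *Cxcl12* cells carried endothelial markers. The nearest genes across its cells were *Ecscr* (0.28) and *Eng* (0.27), both known in endothelium, and then *Saa3* (0.25). These correlations are low in sparse counts and are not read. Endothelial-marker cells of eWAT_ASPC measured 470 CPM, close to the 514 CPM of the cells with under 2 markers of each other type. Among cells with ASPC markers alone the *Cxcl12* ratios kept their direction.

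In iWAT_DFAT the closest of 5977 genes to *Cxcl12* was *Saa3*, an acute-phase serum amyloid gene (0.60), followed by *Dcn* (0.56) and *Col3a1* (0.54). *Dcn* and *Col3a1* encode the proteoglycan decorin and type III collagen. In the top 10% of iWAT_DFAT cells by *Saa3*, *Cxcl12* measured 1609 CPM against 291 CPM in the lower 50%, and in eWAT_DFAT 445 against 171 CPM. In the ASPC libraries the closest gene was *Sfrp1*, a secreted Wnt antagonist, with 0.22 in iWAT and 0.37 in eWAT. The iWAT value is low in sparse counts and is not read. *Cxcl12* in eWAT_ASPC was lower in the cells highest for *Saa3* (354 against 508 CPM). Cells highest for *Cxcl12* in iWAT_DFAT were also shallower, with a median of 16759 UMIs against 22832 in the rest, and the part of depth in these associations was not tested.

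*Cxcl14*, an older member of the family with broad constitutive expression, was the member that stood highest in an ASPC library. It measured 69.1, 120, 807 and 72.4 CPM in iWAT_DFAT, eWAT_DFAT, iWAT_ASPC and eWAT_ASPC. iWAT_ASPC was 11.7-fold above iWAT_DFAT (log2 -3.55 for DFAT over ASPC, interval -3.57 to -3.52) and 11.2-fold above eWAT_ASPC (log2 3.48, interval 3.46 to 3.50), while the other 3 libraries lay within 2-fold of each other. That limit was passed without the 1% of cells with most *Cxcl14*, when iWAT_DFAT over eWAT_DFAT was -1.35 and eWAT_DFAT over eWAT_ASPC 1.22 on the log2 scale. In eWAT the DFAT library was 1.66-fold above the ASPC library (log2 0.73, interval 0.70 to 0.76). Detection was 14.3, 28.1, 71.4 and 20.1% of cells, beside 8.78% of the endothelial-marker cells of eWAT_DFAT, 33.3% of those of iWAT_ASPC and 31.7% of the Schwann-marker cells of iWAT_ASPC.

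*Cxcl14* was uneven wherever it was found. The 10% of cells with most UMIs held 97.4% of it in iWAT_DFAT, 83.8% in eWAT_DFAT, 56.0% in iWAT_ASPC and 94.3% in eWAT_ASPC, beside 19.9 to 28.3% computed for Poisson counts. The highest cell held 289, 318, 371 and 371 UMIs, values that differ far less between libraries than the number of high cells. Cells with 10 or more UMIs numbered 285, 642, 2787 and 295. In iWAT_ASPC its Fano factor of 14.4, which depends on its level too, ranked 7 among 5601 genes. The closest genes to *Cxcl14* there were *Timp1*, an inhibitor of metalloproteinases (0.42), *Emb* (0.37) and *Igfbp4*, an IGF-binding protein (0.36). Across iWAT_DFAT cells *Cxcl14* was lower where cell cycle genes were high (19.4 against 85.3 CPM) and where the NF-κB list was high (25.2 against 93.0 CPM). In eWAT_DFAT the second split went the other way (178 against 87.9 CPM), a value that fell to 121 against 110 CPM with the list of 19 genes. By the cell cycle list other members of iWAT_DFAT were lower in the top cells too. Among them were *Cxcl10* (5.50 against 15.1 CPM), *Cxcl16* (51.6 against 83.8) and *Cxcl2* (90.7 against 130). *Cxcl3* (15.2 against 14.0) and *Cxcl5* (3608 against 3439) were not lower. In eWAT_DFAT every member measured lower in the cell cycle split.

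*Cxcl16*, the membrane-anchored member, measured 59.9, 75.7, 10.5 and 23.9 CPM. Both DFAT libraries were higher than both ASPC libraries, by 5.69-fold in iWAT (log2 2.51, interval 2.44 to 2.58) and 3.17-fold in eWAT (log2 1.66, interval 1.62 to 1.71), and eWAT was above iWAT in both kinds of culture. It was found in 63.8, 70.8, 20.6 and 37.2% of cells, beside 4.23% of the Schwann-marker cells of iWAT_ASPC. Its Fano factors were 1.26, 1.38, 1.12 and 1.45, and the top 10% of cells held 35.8 and 37.3% in the DFAT libraries beside 29.1 and 26.8% for Poisson counts. No cell held more than 33 UMIs.

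In eWAT_ASPC *Cxcl16* differed between classes of cells. Mesothelial-marker cells measured 105 CPM of *Cxcl16* (interval 99.4 to 110), immune-marker cells 144 CPM and endothelial-marker cells 44.8 CPM, against 17.3 CPM in the cells with under 2 markers of each other type. The 547 mesothelial-marker cells held 31.9% of its UMIs, all 10 cells with most *Cxcl16* were among them, and among cells with ASPC markers alone the eWAT over iWAT difference fell within 2-fold (log2 -0.71 for iWAT_ASPC over eWAT_ASPC, from -1.18). In iWAT_ASPC endothelial-marker cells measured 74.1 against 9.86 CPM. In both DFAT libraries the closest gene was *Saa3* (0.29 in each), and in the top 10% of cells by *Saa3* *Cxcl16* measured 149 against 36.6 CPM in iWAT_DFAT and 204 against 61.1 CPM in eWAT_DFAT. The correlation of *Cxcl16* with *Cxcl12* was 0.24 in iWAT_DFAT and 0.19 in eWAT_DFAT. These values and those with *Saa3* are low in sparse counts and are not read. In iWAT_DFAT *Cxcl12* had 0.24 with *Cxcl1* and with *Cxcl5* as well, and in eWAT_DFAT -0.015 and 0.009.

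Free RNA, the transcripts in droplets of 1 to 100 UMIs, carried *Cxcl1*, *Cxcl5*, *Cxcl12* and *Cxcl16* at levels of the order of those in cells, in the libraries listed here. It held *Cxcl1* at 2063, 1257, 91.8 and 27.6 CPM and *Cxcl5* at 3701, 1593, 29.3 and 3.66 CPM in the usual order. *Cxcl12* stood at 664, 153, 195 and 435 CPM and *Cxcl16* at 60.7, 75.5 and 11.9 CPM in the first 3 of these libraries. Subtracting free RNA at 5% of the UMIs of the cells kept all 28 member ratios of at least 2-fold past that limit. The part of free RNA in the shares of cells with a member, those of the marker classes among them, was not tested.

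Transcripts of the chemokine receptors were scarce at this depth, with the exception of *Ackr3*. *Cxcr1*, *Cxcr2*, *Cxcr3*, *Cxcr4*, *Cxcr5* and *Cxcr6* had between 0 and 71 UMIs each per library, or at most 0.383 CPM. *Ackr3*, the scavenging receptor of CXCL12, measured 77.9 CPM in iWAT_DFAT, 2.32 in eWAT_DFAT, 14.0 in iWAT_ASPC and 18.9 in eWAT_ASPC, and it was 33.5-fold higher in iWAT_DFAT than in eWAT_DFAT. *Ackr1*, the erythroid and endothelial scavenger of ELR chemokines, reached 1.77 CPM in eWAT_DFAT and 0.311 to 0.877 CPM elsewhere. Of the other CXC ligands, *Cxcl15* had 0 UMIs in every library, which allows up to 0.0163 CPM (3 UMIs) in iWAT_DFAT, and *Cxcl13*, *Cxcl17*, *Pf4* and *Ppbp* did not exceed 2.37 CPM.

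Of 5 genes for enzymes that cut CXC chemokines, 4 were at least 2-fold higher in iWAT_DFAT than in iWAT_ASPC (10.5% of genes). Between the DFAT libraries 3 were higher in iWAT (8.74%), and 0 were lower in either comparison. In iWAT_ASPC over eWAT_ASPC 1 was higher and 1 lower (4.56 and 4.86%), as in eWAT_DFAT over eWAT_ASPC (8.1 and 7.47%). *Mmp9*, a gelatinase that trims ELR chemokines, measured 32.6, 4.92, 0.361 and 0.0354 CPM, the same order of libraries as *Cxcl1* and *Cxcl5*. *Dpp4*, the peptidase that inactivates CXCL10 and CXCL12, measured 15.5, 3.01, 1.51 and 9.03 CPM, the order of libraries of *Cxcl12* at its upper end and not at its lower end. *Adam17*, which sheds membrane-anchored proteins, measured 63.6, 32.1, 24.3 and 20.6 CPM, and *Adam10*, which sheds CXCL16, measured 56.6, 51.3, 64.4 and 71.7 CPM. *Mmp2* was 3.83-fold higher in iWAT_DFAT than in iWAT_ASPC and within 2-fold between the eWAT libraries. Proteins were not measured here.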

How the data were processed

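The authors ran 10x Genomics 3′ v3.1 libraries through Cell Ranger with mm10 and intronic reads (7.0.0 in their notes and methods) and deposited unfiltered UMI counts per gene and barcode. Per the file headers, the version was 4 for iWAT_ASPC and 7.1.0 for the other 3 libraries. The part of this version difference in the ratios with iWAT_ASPC was not tested. The deposited counts were used as whole numbers. Groups came from the sample titles. The study's stated filter starts at 500 UMIs, and a lower limit of 5000 was used here, with 500 as an alternative. Doublets were not removed in the values given, and removal by Scrublet score (scanpy 1.11.5) was an alternative. The total depth was 211396227 to 242282812 UMIs per library, of which kept cells held 183664704 to 199357348. Thinning drew 5000 UMIs per cell without replacement with a fixed seed. Cells were classed by UMIs of 3 or more of 6 markers, which is a range and not a cell type, and a cell can carry markers of several types. The alternative of only cells with ASPC markers kept cells with 3 or more of these and under 3 of each other type.

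The members and all lists were chosen with earlier results of these data known. The genes named are the 9 members, other CXC ligands, their receptors, 5 enzymes, up to 4 genes of the NF-κB and of the interferon list with the largest ratios, *Saa3*, and the 3 genes most correlated with each member found in 10% or more of thinned cells. *Cxcl11* and *Mx1* were not analysed here. No test was run, because each condition had 1 library, and intervals (numpy 2.4.6, scipy 1.17.1) were checked on simulated data.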

Additional observations from a re-analysis of the deposited data

Results flagged for a closer look

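The direction of the DFAT over ASPC difference was opposite in iWAT and eWAT for 3 members, and with 1 library per condition this difference between depots was not tested. For *Cxcl12* the log2 ratio was 1.78 in iWAT and -1.70 in eWAT. For *Cxcl14* it was -3.55 in iWAT and 0.73 in eWAT. For *Cxcl10* it was 2.59 in iWAT and -0.31 in eWAT, and the eWAT value was 0.15 with cells weighted equally and 0.40 among cells with ASPC markers alone. iWAT_ASPC, which enters all 3 of these iWAT ratios, was the library with the other Cell Ranger version in its header.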

How the results depend on the processing

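Every one of the 28 member ratios of at least 2-fold kept its direction under every alternative that gave a value, and 9 had no value without the 1% of cells with most UMIs of the gene, all of them of *Cxcl2*, *Cxcl3*, *Cxcl9* or *Cxcl10* against an ASPC library. Scaling by the median ratio kept all 28 past 2-fold. With a limit of 4-fold, the count higher in iWAT_DFAT than in eWAT_DFAT fell from 4 to 1, the reverse from 1 to 0, iWAT_ASPC over eWAT_ASPC from 5 to 3, the reverse from 2 to 0, iWAT_DFAT over iWAT_ASPC from 8 to 7, eWAT_DFAT over eWAT_ASPC from 6 to 5 and the reverse from 1 to 0. *Cxcl3* left the 1 member higher in eWAT_DFAT than in iWAT_DFAT, making it 0, with only cells with ASPC markers (log2 -0.91) and without the highest Scrublet scores (-0.995), and without the 1% of cells the count was 2 with *Cxcl14*. Without that 1%, iWAT_ASPC over eWAT_ASPC had 3 members, not 5, and the reverse 3, not 2. There iWAT_DFAT over eWAT_DFAT had 3, not 4, and iWAT_DFAT over iWAT_ASPC 7, not 8. Both lost *Cxcl9*, which fell under the limit of 1 CPM on the mean and not under 2-fold. Genes above 0 in the first library and at 0 in the second counted as higher. In eWAT, DFAT over ASPC had 7, not 6, with *Cxcl9* lost and *Cxcl14* (log2 1.22) and *Cxcl10* (4.17) gained. That *Cxcl10* ratio is not read, for the reason given with its levels. With only cells with ASPC markers eWAT_ASPC over iWAT_ASPC had 1, not 2. Among ratios within 2-fold, *Cxcl2* changed sign between the ASPC libraries with cells weighted equally (-0.375) or median scaling (-0.028) and went from 0.05 to 2.23 with only cells with ASPC markers, and between the DFAT libraries without the 1% of cells (0.065). *Cxcl10* changed sign between the ASPC libraries among cells with ASPC markers (0.187). *Cxcl10* in iWAT_ASPC, ranked by the NF-κB list, went from higher in the top cells to lower (log2 -0.97, interval -2.66 to 0.35, 5 against 49 UMIs) with the 19 genes, a setting added after the data were seen. It was the 1 reversed among 31 such contrasts, of which 21 others left their counting interval. Of 78 member levels in marker classes, 48 left their counting interval when 2 or more markers were needed in place of 3. Class levels therefore depend on that limit. No paired analysis was possible because each condition had 1 library. Depth limits *Cxcl3* and *Cxcl9* in the ASPC libraries, where counts were 6 to 41 UMIs.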
